A study of Mus musculus with 2 samples.

Results

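Ifitm1, Ifitm2 and Ifitm3, the 3 interferon-induced transmembrane genes taken as members, were chosen by name from the 53715 genes of both count tables, because earlier values of these libraries had put Ifitm1 among the genes that differed between them. Their levels by library and their relation to the Ifit genes and to granzymes C to G are thus given as descriptions, with no test. The cells came from CT26_b2m-/- tumours, a mouse colon carcinoma line that by its label lacks B2m, the light chain of MHC class I. CD45.2+CD3-NKp46+ cells were sorted from the digested tumours and profiled in microwells, and both libraries share this tumour, this sort and IL-15SA. By the sample titles, 1 library was from tumours given IL-15SA alone and 1 from tumours given IL-15SA+IL-21Fc, called IL-15SA-only and combined below. The labels give neither dose, time, mouse strain, age nor the number of animals, and all cells of a treatment went into a single library, so no difference has a replicate check. IL-15 and IL-21 are cytokines that signal through the common gamma chain and sustain and activate NK cells.

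IFITM proteins are small membrane proteins that hinder the fusion of enveloped viruses with cell membranes. IFITM1 sits mostly at the cell surface, and IFITM2 and IFITM3 mostly in endosomes and lysosomes. The family is known as a target of type I and type II interferon, whose signals reach promoters through interferon-stimulated response elements (ISRE) and gamma-activated sites (GAS). The Ifit genes, which encode cytosolic proteins that bind foreign RNA, are the usual markers of the type I response. Gzmc to Gzmg encode serine proteases of killer cell granules that are made after strong cytokine stimulation.

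All 3 members lie on chromosome 7 of GRCm38, in the order Ifitm2, Ifitm1, Ifitm3. Ifitm1 (ENSMUSG00000025491, plus strand) spans 140967221 to 140969825, Ifitm2 (ENSMUSG00000060591, minus strand) 140954837 to 140955987, and Ifitm3 (ENSMUSG00000025492, minus strand) 141009586 to 141010770, each annotated as protein-coding in GENCODE M21. Their longest protein-coding transcripts, aligned pairwise, were identical at 73.6% (Ifitm1 and Ifitm2), 73.8% (Ifitm1 and Ifitm3) and 76.4% (Ifitm2 and Ifitm3) of aligned bases. The promoters are printed because Ifitm1 and Ifitm3 differed in how they went with the Ifit genes. Each runs from 250 bases before to 50 bases after the RefSeq transcription start, 5′ to 3′ on the gene's strand, in GRCm38.p6. For all 3 the RefSeq start lies inside the GENCODE gene. For Ifitm1 the whole window does, so it leaves out the GENCODE start of that gene. Capitals mark matches, on either strand, to an ISRE pattern (GAAA, any 2 bases, then GAAA) or to the GAS pattern TTCNNNGAA.
Ifitm1 (chr7:140967826-140968125, plus strand): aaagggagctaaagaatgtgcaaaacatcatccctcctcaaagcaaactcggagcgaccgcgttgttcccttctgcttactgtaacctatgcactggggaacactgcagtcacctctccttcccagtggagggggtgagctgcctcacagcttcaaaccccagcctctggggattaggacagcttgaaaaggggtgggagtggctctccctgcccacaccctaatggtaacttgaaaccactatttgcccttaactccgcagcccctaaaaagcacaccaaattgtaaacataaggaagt
Ifitm2 (chr7:140955912-140956211, minus strand): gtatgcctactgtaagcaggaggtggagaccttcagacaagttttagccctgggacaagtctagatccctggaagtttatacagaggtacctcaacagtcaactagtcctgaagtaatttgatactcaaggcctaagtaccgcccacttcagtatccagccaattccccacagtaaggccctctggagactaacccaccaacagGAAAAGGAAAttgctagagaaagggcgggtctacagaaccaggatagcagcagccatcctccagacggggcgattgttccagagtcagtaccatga
Ifitm3 (chr7:141010695-141010994, minus strand): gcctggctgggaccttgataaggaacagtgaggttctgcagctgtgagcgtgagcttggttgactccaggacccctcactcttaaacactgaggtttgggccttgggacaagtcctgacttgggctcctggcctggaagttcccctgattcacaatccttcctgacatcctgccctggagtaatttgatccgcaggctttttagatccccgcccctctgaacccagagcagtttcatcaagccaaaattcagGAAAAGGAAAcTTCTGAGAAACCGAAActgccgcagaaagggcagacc

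The Ifitm3 window held 2 ISRE matches, GAAAAGGAAA and GAAACCGAAA, and 1 GAS match, TTCTGAGAA, which overlaps the second of them. The Ifitm2 window held 1 ISRE match, the same GAAAAGGAAA as in Ifitm3, and the Ifitm1 window held neither motif. Of 32851 RefSeq promoters of the same length, 3.44% held the ISRE pattern and 8.30% the GAS pattern. The ISRE pattern was found in 5 of 6 Ifit genes, in 15 of 26 matched genes of a type I interferon list and in 0 of 5 granzymes C to G. A match is a description of letters, and no match in this window says nothing about factors that bind elsewhere.

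The IL-15SA library held 8386 barcodes and 30893388 unique molecular identifiers (UMIs), and the combined library 12435 barcodes and 35336180 UMIs. Retained barcodes with at least 1 Ncr1 UMI outside the tumour-like cluster were called Ncr1-positive, Ncr1 being the gene of NKp46. They numbered 7017 and 9785, with a median of 3208 and 2432 UMIs. A cluster with 16 of 17 tumour or stroma markers at 5 times their median over clusters and fewer NK transcripts than the others was called tumour-like. It held 548 and 1321 barcodes (6.88% and 11.2% of those retained), and 376 and 716 of them also had an Ncr1 UMI. The 14 NK markers summed to 11842 and 7248 counts per 1000000 UMIs (CPM) there, against 37292 and 33999 CPM in Ncr1-positive barcodes, and the 17 tumour or stroma markers to 4746 and 5663 CPM, so these barcodes held transcripts of both kinds. In Ncr1-positive barcodes the 17 tumour or stroma markers summed to 121 and 240 CPM. The monocyte and macrophage list summed to 1068 and 1213 CPM there, of which Ly6c2, a surface protein that NK cells also carry, made up 1053 and 1197 CPM and Cd14 12.3 and 12.3 CPM. Its members Csf1r and C1qa were at 0 or 1 UMI and Lyz2 at 4 and 7 UMIs. Cd3e was at 1.28 and 0.754 CPM, while the T cell list summed to 431 and 537 CPM, mostly from Trbc2, and innate lymphoid cells of type 1 carry NKp46 and pass the sort. A total of 60 barcode sequences were listed in both libraries.

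Ifitm1 was the member that differed most between the libraries in Ncr1-positive barcodes. It had 22947 UMIs in the IL-15SA-only library, 864 CPM (95% interval 853 to 876), and 9627 UMIs in the combined library, 346 CPM (339 to 353). The level was 2.50-fold lower in the combined library (2.44 to 2.56), the third lowest ratio of the 5427 genes at 20 CPM or more. At least 2-fold lower levels were found for 0.184% of these genes and at least 2-fold higher levels for 0.203%. Intervals here and below are exact and cover counting error only, not the spread between animals or libraries. Those of levels and ratios treat UMIs as independent, so they also leave out the spread between barcodes, and would be wider with it.

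Ifitm3 differed less. It had 10201 UMIs or 384 CPM (377 to 392) in the IL-15SA-only library and 8181 UMIs or 294 CPM (288 to 300) in the combined library. The level was 1.31-fold lower in the combined library (1.27 to 1.35), which is short of the 1.5-fold that 0.461% of genes passed downwards and 1.46% upwards. Both members were thus lower in the combined library, while the Ifit genes were higher there. Leaving out barcodes listed in both libraries gave log2 ratios of -1.31 for Ifitm1 and -0.38 for Ifitm3, beside -1.32 and -0.39.

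Ifitm2 was almost unmeasured. The files held 4 Ifitm2 UMIs over all barcodes of both libraries, 1 of them in Ncr1-positive barcodes of each library and 0 in tumour-like barcodes, so no level, ratio or relation is given for it. In the annotation, 95.7% of the Ifitm2 gene body lies within Gm45717 on the same strand, against 0% for Ifitm1 and Ifitm3. Of its exonic bases, 40.9% are shared with exons of that gene. Of 793 protein-coding genes with at least 90% of their body shared in this way, 91.0% had 10 UMIs or fewer, against 41.5% of 17539 such genes with none shared. The IL-2 receptor gamma chain gene Il2rg, on which NK cells depend, shares 100% of its body and 30.5% of its exonic bases with Gm20489. It also had 0 UMIs. The low Ifitm2 count is therefore not evidence that the gene was silent, and the part of read assignment in it was not tested.

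Of the other family members, Ifitm5, known from bone-forming cells, had 36 UMIs over all barcodes. It shares 80.2% of its gene body and 29.7% of its exonic bases with Gm45717 on the same strand. Ifitm6 had 6 and Ifitm7 had 4 UMIs, with 0% of their gene bodies shared. Ifitm10, a distant relative, was at 133 and 138 CPM in Ncr1-positive barcodes, with a ratio of combination over IL-15SA of 1.04 (0.995 to 1.09). The lower level in the combined library was therefore seen for Ifitm1 and, less, for Ifitm3, and not for Ifitm10.

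Fewer barcodes of the combined library had an Ifitm1 transcript. After thinning each barcode to 1000 UMIs, with no barcode left out, 25.7% (24.7 to 26.8) of Ncr1-positive barcodes had an Ifitm1 UMI in the IL-15SA-only library and 10.9% (10.2 to 11.5) in the combined library. Among barcodes with an Ifitm1 UMI the mean was 3.00 and 2.50 thinned UMIs, so the share differed 2.37-fold and the level within these barcodes 1.20-fold. With most thinned barcodes at 0 UMIs, these values do not separate fewer cells with the transcript from a lower level per cell. Barcodes with 3 or more thinned Ifitm1 UMIs made up 8.47% and 2.79%. Without thinning, 45.5% and 18.8% of barcodes had an Ifitm1 UMI. Ifitm1 was concentrated in few barcodes: the 10% of barcodes with most Ifitm1 held 81.9% of its UMIs in the IL-15SA-only library and 91.1% in the combined library, and the highest barcodes had 150 and 166 UMIs.

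Ifitm3 was spread more evenly. A thinned Ifitm3 UMI was found in 23.7% (22.7 to 24.7) of Ncr1-positive barcodes of the IL-15SA-only library and 21.1% (20.3 to 21.96) of the combined library, with a mean of 1.58 and 1.40 UMIs in those barcodes. Unthinned, the shares were 46.8% and 39.3%. The 10% of barcodes with most Ifitm3 held 60.8% and 57.3% of its UMIs. In tumour-like barcodes the thinned shares were 67.9% and 76.8% for Ifitm3, and 37.0% and 28.4% for Ifitm1, so neither member offers a cell type without it as a measure of free RNA.

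The depth of the barcodes moved with the Ifitm1 level. Ncr1-positive barcodes with under 2000 UMIs had 589 CPM of Ifitm1 in the IL-15SA-only library and 144 CPM in the combined library, a 4.09-fold lower level (3.74 to 4.47). From 2000 to under 4000 UMIs the levels were 715 and 282 CPM (2.53-fold), and from 4000 to under 8000 UMIs 879 and 489 CPM (1.80-fold, 1.73 to 1.87). At 8000 UMIs or more they were 1337 and 1018 CPM, 1.31-fold lower (1.23 to 1.40). Ifitm1 was thus lower in the combined library in each depth range, by less in deeper barcodes. The shallowest range held 22.3% of IL-15SA and 34.3% of combination barcodes. Drawing equal numbers of barcodes at each depth, 6178 per library, gave a log2 ratio of -0.93 for Ifitm1 in place of -1.32. The Ifitm3 level was 1.20-fold to 1.46-fold lower in the combined library over the 4 ranges, with no order by depth. These ranges were chosen after the data had been seen, and the part of depth in the result was not tested.

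**Figure D1:**
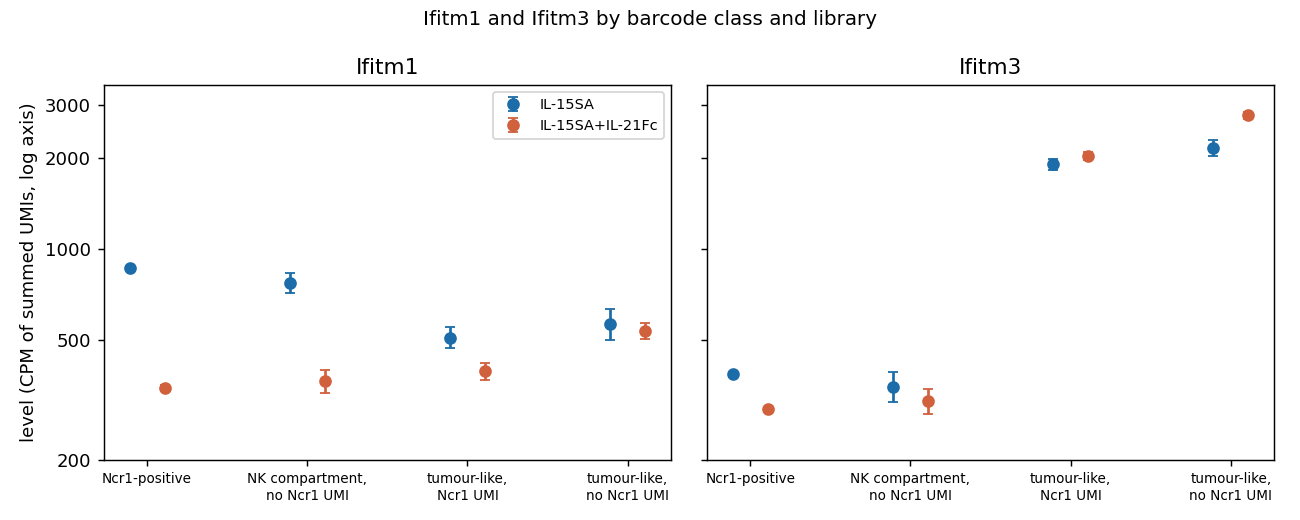
Level of Ifitm1 (left) and Ifitm3 (right) in CPM on a log axis, by class of barcode and library; bars are exact 95% Poisson intervals, often smaller than the points. Ifitm1 was lower in the combined library in Ncr1-positive barcodes (346 against 864 CPM), and Ifitm3 was near 2000 CPM or above in tumour-like barcodes.

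Tumour-like barcodes held the higher Ifitm3 level. Ifitm3 was at 1985 CPM (1918 to 2054) in tumour-like barcodes of the IL-15SA-only library and 2358 CPM (2311 to 2405) in those of the combined library, 5.17-fold (4.97 to 5.37) and 8.02-fold (7.79 to 8.26) the Ncr1-positive level of the same library. At least 2-fold higher levels in tumour-like barcodes were found for 19.0% and 20.3% of genes. Ifitm1 was at 525 CPM (490 to 561) and 454 CPM (434 to 476) there, 0.607 and 1.31 times the Ncr1-positive level. The order of the classes for Ifitm1 thus differed between libraries: Ncr1-positive barcodes were higher in 1 and tumour-like barcodes in the other. Between libraries, tumour-like Ifitm3 was 1.19-fold higher in the combined library (1.14 to 1.24) and tumour-like Ifitm1 1.15-fold lower (1.06 to 1.25). At least 1.5-fold higher levels in this comparison were found for 2.09% of genes and at least 1.5-fold lower levels for 5.05%. Tumour-like barcodes without an Ncr1 UMI, 172 and 605, had 2164 and 2777 CPM of Ifitm3, a ratio of 1.28 (1.20 to 1.37), and 564 and 535 CPM of Ifitm1, a ratio of 0.948 (0.829 to 1.09) whose interval includes 1. NK transcripts in tumour-like barcodes moved with these differences: beside the lower sum of NK markers given above, Ncr1 had 530 and 357 CPM (ratio 0.675, 0.620 to 0.734). Their part in the result was not tested.

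Tumour transcripts also reached Ncr1-positive barcodes. The median tumour or stroma marker was there at 2.77% of its tumour-like level in the IL-15SA-only library and 4.69% in the combined library. Ifitm3 was at 19.4% and 12.5% of its tumour-like level, above that median in both libraries. Single markers reached 10.7% and 46.6%, the latter Fstl1 with 7 UMIs in tumour-like barcodes. At the median percent, Ifitm3 would stand at 54.9 and 111 CPM in Ncr1-positive barcodes, which is 329 and 183 CPM below its measured level. In barcodes with 0 tumour or stroma marker UMIs, 4820 and 5637, the log2 ratio of Ifitm3 was -0.37 and that of Ifitm1 -1.33. Over thinned barcodes with 0, 1 and 2 or more such UMIs, Ifitm3 was at 288, 310 and 374 CPM in the combined library. In the IL-15SA-only library it was at 368, 420 and 388 CPM. For Ifitm1 the median percent gives 14.5 and 21.3 CPM. The part of tumour RNA in the Ifitm3 levels was not tested further.

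Ifitm1 went with granzymes C to G within each library. In the IL-15SA-only library, Ncr1-positive barcodes with 0, 1 to 2, 3 to 9 and 10 or more thinned Gzmc to Gzmg UMIs had 460, 788, 1581 and 2546 CPM of Ifitm1. In the combined library the same bins had 177, 349, 751 and 1107 CPM. Each step was upwards in both libraries, and the intervals of neighbouring bins did not overlap. Barcodes with 3 or more granzyme UMIs had 3.68-fold (3.45 to 3.93) and 4.43-fold (4.03 to 4.87) the Ifitm1 level of those with 0. At least 2-fold higher levels in this split were found for 0.481% and 0.656% of genes.

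Ifitm3 followed the granzymes less steeply. Its levels over the 4 bins were 273, 373, 670 and 798 CPM in the IL-15SA-only library and 250.9, 325, 532 and 792 CPM in the combined library. The ratio of 3 or more over 0 was 2.51 (2.29 to 2.76) and 2.22 (2.003 to 2.45). Ifitm10 was at 141 and 113 CPM in barcodes with 0 and with 3 or more granzyme UMIs of the IL-15SA-only library, and at 140 and 135 CPM in those of the combined library. Ifitm1 and Ifitm3 were thus higher in granzyme-rich barcodes, while Ifitm10 was not.

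**Figure D2:**
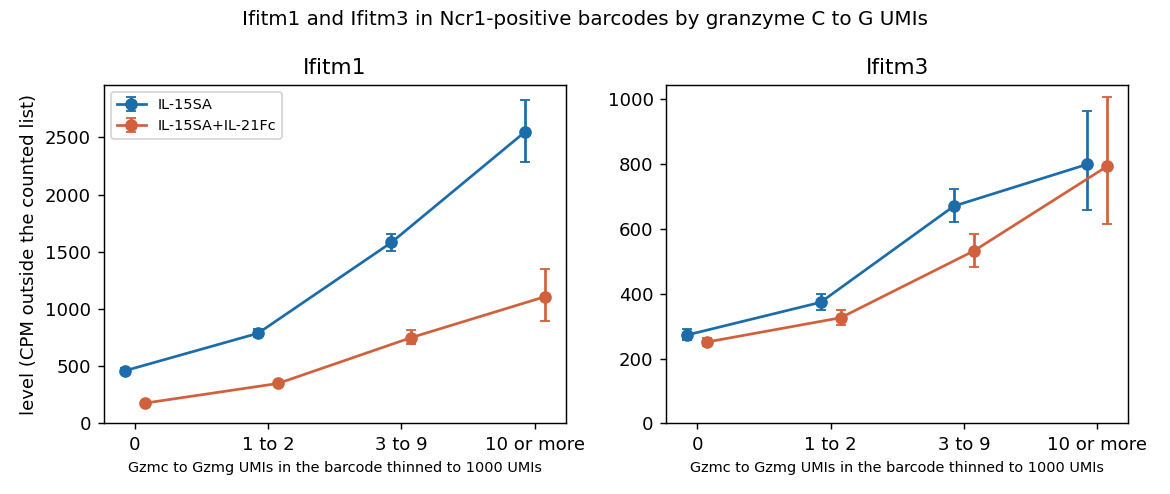
Ifitm1 (left) and Ifitm3 (right) level in CPM, out of UMIs outside the 5 granzymes, by the number of Gzmc to Gzmg UMIs in Ncr1-positive barcodes thinned to 1000 UMIs; bars are exact 95% Poisson intervals. Ifitm1 reached 2546 and 1107 CPM in barcodes with 10 or more granzyme UMIs, and its 2 lines stay apart in every bin.

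Each granzyme alone gave the same direction. Ifitm1 was 2.11-fold higher in barcodes with a Gzmc UMI than in those without in both libraries. For Gzmd, Gzme, Gzmf and Gzmg the ratios were 2.59, 2.25, 2.39 and 2.83 in the IL-15SA-only library and 4.06, 4.57, 3.26 and 5.02 in the combined library. The interval of each was above 1, and the Gzmg split of the combined library rested on 48 barcodes. Granzymes C to G are close paralogs, so reads may have been shared among them. Summed over the list, their level was 1544 and 844 CPM in Ncr1-positive barcodes, 1.83-fold lower in the combined library (1.80 to 1.86). Barcodes with 3 or more granzyme UMIs made up 17.1% and 9.14%.

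Within bins of granzyme count the Ifitm1 difference between the libraries was still present. The bins are ranges of thinned counts and were not matched on the depth of the barcodes. In the granzyme-led cluster of the finer clustering below, the ratio of combination over IL-15SA was 0.906. Ifitm1 was itself among the leading genes of that cluster, so this ratio is not comparable with those of the bins. Over the bins, the Ifitm1 level was 2.60-fold lower in the combined library in barcodes with 0 granzyme UMIs (2.41 to 2.80). It was 2.25-fold, 2.11-fold and 2.30-fold lower in the bins of 1 to 2, 3 to 9 and 10 or more. For Ifitm3 the same ratios were 1.09, 1.15, 1.26 and 1.01. In barcodes without any Gzmc to Gzmg UMI before thinning, 1855 and 4973, the log2 ratio was -1.16 for Ifitm1 and -0.081 for Ifitm3, against -0.39 for Ifitm3 in all Ncr1-positive barcodes. The Ifitm3 difference was thus near 0 in granzyme-free barcodes, and that of Ifitm1 was not.

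Ifitm1 was lower, not higher, in barcodes with Ifit transcripts. A thinned Ifit UMI was found in 248 Ncr1-positive barcodes of the IL-15SA-only library (3.53%) and 679 of the combined library (6.94%). Ifitm1 was at 782 CPM in barcodes with 0 Ifit UMIs, 594 with 1 and 143 with 2 or more in the IL-15SA-only library, the last from 7 Ifitm1 UMIs in 49 barcodes. In the combined library it was at 278, 178 and 197 CPM. Barcodes with 1 or more Ifit UMIs had 1.55-fold (1.30 to 1.87) and 1.52-fold (1.27 to 1.83) less Ifitm1 than those with 0. At least 1.5-fold lower levels in this split were found for 11.1% and 4.20% of genes, so in the IL-15SA-only library the ratio is within what many genes show. Between libraries, Ifitm1 was 2.81-fold lower in the combined library at 0 Ifit UMIs and 2.76-fold at 1 or more, while at 2 or more it was 1.38-fold higher there, with an interval (0.604 to 3.67) that includes 1.

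Ifitm3 went with the Ifit genes in the combined library. Its levels were 284, 442 and 460 CPM with 0, 1 and 2 or more Ifit UMIs there, and the ratio of 1 or more over 0 was 1.57 (1.39 to 1.77). In the IL-15SA-only library the levels were 372, 367 and 655 CPM and the ratio was 1.14 (0.929 to 1.39), an interval that includes 1. At least 1.5-fold higher levels were found for 14.1% of genes in the IL-15SA-only library and 6.03% in the combined library. The difference between the libraries in this ratio was not tested. Taking single genes, Ifitm3 was 1.47-fold higher with an Ifit2 UMI, 1.63-fold with Ifit3 and 1.80-fold with Ifit1 in the combined library. The same splits gave 0.653, 0.530 and 1.33 (0.991 to 1.75) for Ifitm1. The Ifit3b split gave 2.11 (1.09 to 3.70) for Ifitm1, from 12 Ifitm1 UMIs in 21 barcodes. The Ifit1bl1 and Ifit1bl2 splits gave 0.167 and 0.204, from 1 and 2 Ifitm1 UMIs in 22 and 36 barcodes. Single Ifit genes thus did not all give the same direction for Ifitm1, and the rarer ones rest on few UMIs.

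The other type I response genes show what the split measures. Of the type I list outside the Ifit genes, 30 of 30 and 31 of 31 measured genes were higher in barcodes with an Ifit UMI, with a median ratio of 3.04 and 2.81. The intervals of 23 and 31 of them were above 1. Measured here means a minimum of summed UMIs over both groups of barcodes. The share of all genes above 1 is not given. Of genes at 20 CPM or more, 14.1% and 6.03% were at least 1.5-fold higher in this split. The lowest of the list was Trim30a, an interferon-induced regulator of inflammasome and TLR signals, at 1.26 and 1.35. Isg15, a ubiquitin-like modifier, was at 6.70 and 4.46, and Bst2, the tether of budding virions, at 2.20 and 2.18. Ifitm3 was below the median of the list in both libraries and above its lowest gene in the combined library, and Ifitm1 was below all of the list's measured genes in both.

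**Figure D3:**
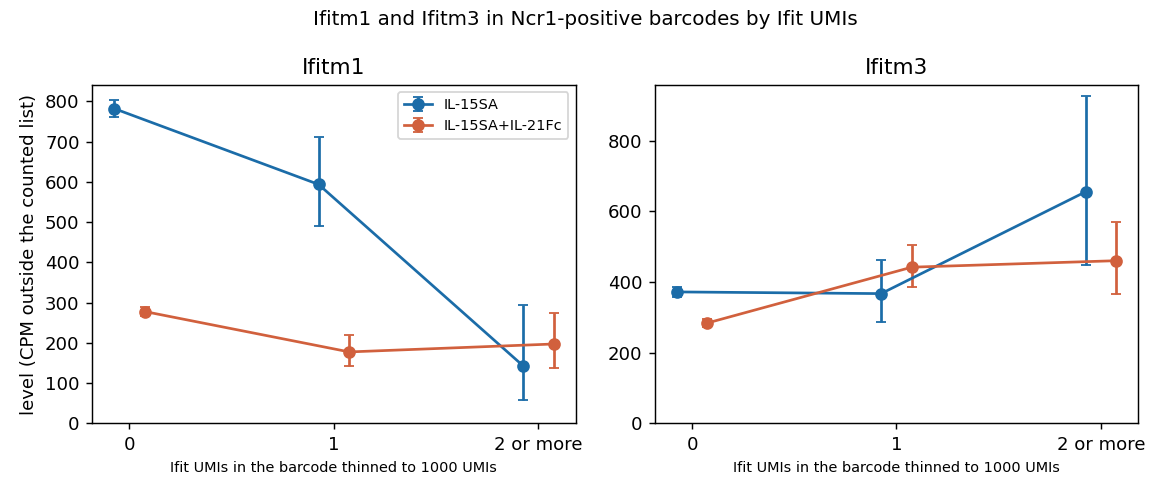
Ifitm1 (left) and Ifitm3 (right) level in CPM, out of UMIs outside the Ifit genes, by the number of Ifit UMIs in Ncr1-positive barcodes thinned to 1000 UMIs; bars are exact 95% Poisson intervals. Ifitm1 was highest at 0 Ifit UMIs in both libraries (782 and 278 CPM), and Ifitm3 was lowest at 0 in the combined library (284 CPM).

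With both counts known, Ifitm1 was lower with an Ifit UMI in granzyme-positive barcodes of both libraries. The levels there were 1126 CPM without and 563 CPM with an Ifit UMI in the IL-15SA-only library, the second from 116 barcodes, and 483 and 333 CPM in the combined library. In granzyme-negative barcodes they were 460 and 455 CPM in the IL-15SA-only library, with overlapping intervals, and 181 and 127 CPM in the combined library, with intervals apart. Ifitm3 was highest in barcodes with both kinds of UMI, at 537 CPM (411 to 688) in the IL-15SA-only library and 562 CPM (459 to 682) in the combined library. It was lowest in those with neither, at 271 (254 to 288) and 239 CPM. With granzyme UMIs only it was at 481 CPM (457 to 505) and 381 CPM (359 to 404). With Ifit UMIs only it was at 326 CPM (236 to 439) and 405 CPM (350 to 465). In the IL-15SA-only library the interval with both kinds overlapped those with either alone, and that with Ifit only overlapped that with neither. In the combined library the interval with both kinds overlapped only that with Ifit alone.

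Read from the side of the members, barcodes rich in Ifitm1 and those rich in Ifitm3 both had more of the granzymes, and their counts over the type I list are given side by side, with no test of the difference. Barcodes with 2 or more thinned Ifitm1 UMIs, 839 and 412, were compared with those with 0. Here and for Ifitm3, genes at 20 CPM or more in either group were counted, so a gene can enter through the group where it is higher. All 5 granzymes were at least 1.5-fold higher in both libraries, as were 3.25% and 6.39% of all genes. Of these 5, Gzmg reached 20 CPM only in Ifitm1-rich barcodes, at 67.1 against 12.3 CPM and 31.7 against 5.85 CPM. It could therefore not have counted as lower. Of the type I list, 0 of 23 genes were at least 1.5-fold higher and 3 lower in the IL-15SA-only library, and 1 of 24 higher and 5 lower in the combined library. Among those lower, Ifit2 in the IL-15SA-only library and Ifit3 in the combined library reached 20 CPM only in Ifitm1-free barcodes. At least 1.5-fold lower levels were found for 3.75% and 10.2% of all genes. Isg15 was at 0.629 (0.445 to 0.868) and 0.598 (0.395 to 0.870) of its level in Ifitm1-free barcodes.

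In barcodes with 2 or more thinned Ifitm3 UMIs, 543 and 532, all 5 granzymes were again at least 1.5-fold higher. Gzmg again reached 20 CPM only in the rich barcodes, at 42.5 against 15.9 CPM and 20.7 against 4.54 CPM. Here 4 of 23 type I genes were at least 1.5-fold higher in the IL-15SA-only library and 17 of 30 in the combined library, with 0 lower in either. Of those higher, Stat2 in the IL-15SA-only library reached 20 CPM only in Ifitm3-rich barcodes. In the combined library the same held for Ifit1, Mx2, Oas3, Ifih1, Ddx60 and Slfn5, the last at 32.0 against 8.68 CPM. So did Iigp1 of the interferon gamma list. Such genes could not have counted as lower, so the counts of higher genes lean upwards. The interferon gamma list gave 0 of 17 higher and 1 lower, and 2 of 18 higher and 1 lower, with median log2 ratios of 0.04 and 0.08. The genes lower, Irgm2 in the IL-15SA-only library and Nlrc5 in the combined library, reached 20 CPM only in Ifitm3-free barcodes. For Ifitm1-rich barcodes that list gave 0 of 17 higher in both libraries, with 2 and 5 lower. Of those lower, Cxcl10 in both libraries, and Gbp5 and Nlrc5 in the combined library, reached 20 CPM only in Ifitm1-free barcodes. They could not have counted as higher, so the counts of lower genes lean downwards. Between Ifitm3-rich and Ifitm3-free barcodes, 5.81% and 5.97% of all genes were at least 1.5-fold higher, and 5.46% and 5.93% lower. Bst2 was 1.36-fold (1.11 to 1.64) and 1.83-fold (1.58 to 2.11) higher, and Rtp4, a chaperone of receptors that interferon induces, 1.85-fold (1.29 to 2.59) and 1.46-fold (1.11 to 1.88). Ifitm3 itself was at 688 and 702 CPM in barcodes with 2 or more Ifitm1 UMIs, against 325 and 274 CPM in those with 0.

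Per barcode these relations were weak, as counts of 0 and 1 dominate. Over Ncr1-positive barcodes thinned to 1000 UMIs, Pearson's r on a log scale was 0.22 and 0.14 between Ifitm1 and granzymes C to G, and -0.03 and -0.02 between Ifitm1 and the Ifit genes. For Ifitm3 it was 0.18 and 0.12 with the granzymes and 0.01 and 0.06 with the Ifit genes. Ifitm1 and Ifitm3 gave 0.15 and 0.12. Barcodes of a library share their depth and library, and these values are descriptions.

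Both members were lower in barcodes with the most Mki67 and Top2a transcripts. In barcodes with 2 or more thinned UMIs of the proliferation genes Mki67 and Top2a, Ifitm1 was at 591 CPM in the IL-15SA-only library and 110 CPM in the combined library, against 807 and 285 CPM in barcodes with 0. Ifitm3 was at 288 and 227 CPM, against 381 and 303 CPM. With 1 such UMI, Ifitm1 was at 685 and 258 CPM and Ifitm3 at 380 and 278 CPM, and the intervals overlapped those at 0 except for Ifitm1 in the IL-15SA-only library. In the finer clustering given below, the cluster led by Cdc6, Rrm2 and Ccne2 had 769 and 378 CPM of Ifitm1. The cluster led by Nusap1 had 437 and 158 CPM, beside 864 and 346 CPM over all Ncr1-positive barcodes.

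Clusters gave the same direction between libraries for Ifitm1. The 7 clusters were built on the 2000 most variable genes of the same counts, so the levels below describe them and test nothing. Ifitm1 was lower in the combined library in 7 of 7 clusters, each with an interval below 1, from a ratio of 0.336 in cluster 6, led by Slfn5, Ifit2 and Ifit3, to 0.866 in the tumour-like cluster 5. It was highest in cluster 3, led by Gzmg, Gzmf and Gzmd, at 1568 and 1001 CPM, where Ifitm1 was among the leading genes. Cluster 1, led by Ccl5, S1pr5 and Cma1, had 342 and 162 CPM. Cluster 6 had 605 and 203 CPM of Ifitm1 beside 552 and 742 CPM of summed Ifit genes. Cluster 4, led by Cd74 and Krt83 and holding the ILC1 markers Il7r and Cxcr6, had 643 and 224 CPM.

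Ifitm3 was lower in the combined library in 5 of 7 clusters, with an interval below 1 in 3 of them. In cluster 1 its ratio was 1.06 (0.991 to 1.14), and in the cycling cluster 2, led by Esco2 and Nusap1, 0.690 (0.650 to 0.733). Its levels were 555 CPM (505 to 609) and 510 CPM (475 to 546) in the Ifit-led cluster 6, and 510 CPM (495 to 525) and 390 CPM (373 to 407) in the granzyme-led cluster 3, so these were apart in 1 library and overlapped in the other.

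In a finer clustering of 14 clusters, Ifitm1 was lower in the combined library in 14 of 14 clusters, with an interval below 1 in each of the 13 outside the tumour-like cluster. In the granzyme-led cluster of 743 and 312 barcodes, the level was 2660 CPM (2605 to 2716) in the IL-15SA-only library and 2409 CPM (2321 to 2500) in the combined library, a ratio of 0.906 (0.868 to 0.945). Ifitm1 was among the leading genes of this cluster. Summed granzymes C to G were at 5532 and 6136 CPM there, and Ifitm3 was at 790 and 733 CPM, above the 562 and 489 CPM of the Ifit-led cluster. The lowest Ifitm1 ratio was 0.216 (0.160 to 0.284), in a cluster led by Serpinb9b and Bnip3, with 598 and 129 CPM. A cluster of 336 and 566 barcodes led by Phf11d, Fer and Gm19951 had Ifitm3 at 811 and 664 CPM. It held 6 tumour or stroma markers at 5 times their median with an NK marker ratio of 0.961, so it was counted as NK compartment. The part of tumour RNA in its Ifitm3 level was not tested.

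**Figure D4:**
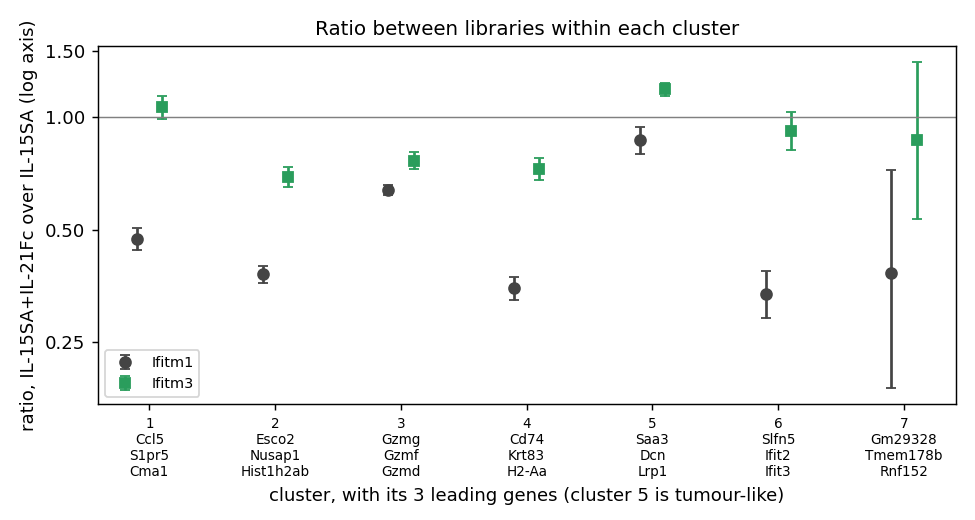
Ratio of combination over IL-15SA level (log axis) of Ifitm1 and Ifitm3 within each of 7 clusters; bars are exact 95% intervals. Ifitm1 was below 1 in 7 of 7 clusters, and Ifitm3 lay between 0.690 and 1.19.

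The genes most like each member over clusters were taken by correlation. Over 12 library-by-cluster sums of at least 100 barcodes and 7390 genes, the 5 genes with the highest Pearson correlation with Ifitm1 were Krtcap2 (0.92), Gzmg (0.88), Bet1 (0.85), Rpl39 (0.83) and Rpl41 (0.83). Krtcap2 encodes a subunit of the oligosaccharyltransferase complex, and Rpl39 and Rpl41 encode ribosomal proteins. Krtcap2 ranged from 734 to 897 CPM and Gzmg from 1.06 to 65.2 CPM over the 12 sums. For Ifitm3 the 5 were Eif1a (0.98), Zfas1 (0.97), Gaa (0.97), Sec24d (0.96) and Tmem230 (0.96). The sums of a cluster share genes used to build it, and the 2 tumour-like sums, where Ifitm3 was highest, set much of the range.

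Between the libraries the interferon lists lay on the other side of 0 from Ifitm1 and Ifitm3, and the granzymes on the same side. List genes at 5 CPM or more in 1 library are counted, and of all 9188 such genes 2.22% were at least 1.5-fold higher in the combined library and 0.512% lower, with a median log2 ratio of -0.00081. Among interferon receptors and signalling genes, 0 of 10 passed 1.5-fold in either direction, and the median was 0.21. Stat2 and Irf9, which encode transcription factors of the type I response, had log2 ratios of 0.36 and 0.29, the kinases Jak1 and Tyk2 0.01 and 0.13, and Ifng, the interferon made by NK cells, 0.17.

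Of the type I interferon list, 13 of 33 measured genes were at least 1.5-fold higher in the combined library and 0 were lower. Of the 13, Slfn5 reached 5 CPM only in the combined library, at 8.44 against 4.82 CPM, so it could not have counted as lower. A log2 ratio above 0 was found for 4581 of all 9188 genes at this filter and for 33 of 33 of the list, with a list median of 0.43. The largest were Ifit3 (1.61), Rtp4 (0.98) and Rsad2 (0.94), and the smallest Trim30a (0.13), Usp18 (0.15) and Ddx58 (0.15). Ifit1 and Ifit2 were at 0.89 and 0.86, Isg15 at 0.76, Irf7 at 0.43 and Bst2 at 0.40. Summed Ifit genes were at 39.8 and 83.1 CPM, 2.09-fold higher in the combined library (1.94 to 2.25). Of the interferon gamma list, 3 of 18 genes were at least 1.5-fold higher and 0 lower: Iigp1 (1.30), Cxcl10 (0.98) and Tgtp2 (0.83). Socs1, a brake on JAK signalling, was at -0.24. Ifitm1 at -1.32 and Ifitm3 at -0.39 lay below each measured gene of the type I list.

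All 5 granzymes of the list were at least 1.5-fold lower in the combined library, with a median log2 ratio of -1.22, from Gzmc at -0.73 to Gzmg at -1.47. Ifitm1 lay within this range. Of 8 genes whose proteins modify or bind IFITM proteins, 1 was at least 1.5-fold higher and 0 lower. That gene was Cd81 (0.85), a tetraspanin, followed by the tetraspanin Cd9 (0.51) and the kinase Fyn (0.20). The lowest were Vcp (-0.21), an ATPase of protein turnover, the protease Zmpste24 (-0.16) and the ubiquitin ligase Nedd4 (-0.10).

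**Figure D5:**
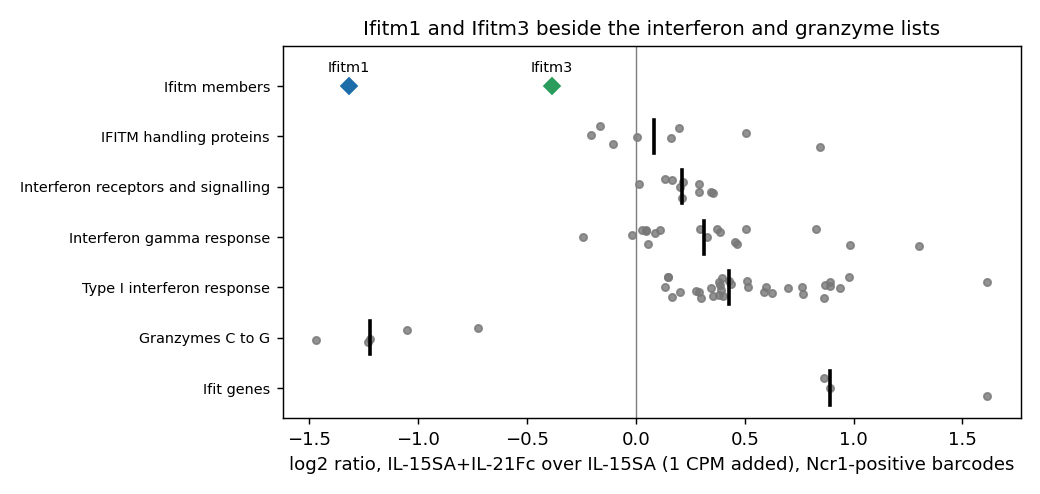
Log2 ratio of combination over IL-15SA level, with 1 CPM added, in Ncr1-positive barcodes for each measured gene of 6 lists (points, spread at random in height) with the list's median (bar), and for Ifitm1 and Ifitm3 (diamonds). Ifitm1 at -1.32 lies among the granzymes, which run from -1.47 to -0.73, and both members lie below the type I genes.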

How the data were processed

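The deposited values are raw UMI counts per gene and barcode, as the authors left them, not normalized. The submitters' processing notes name cutadapt, featureCounts, Seurat 4, Scanpy and mm10 without roles. Which aligner, annotation and cell calling were used is not given in the sources used here. Sample groups follow the sample titles, although the series title names other cytokine groups. Of 53715 gene IDs, 53620 are in GENCODE M21. The members, the gene lists and the comparisons were chosen with earlier results of these data known.

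Barcodes under 200 genes or over 20% mitochondrial UMIs, 0 and 5 of them, were removed. Scrublet's automatic threshold marked 3 and 0 barcodes and was taken to have failed, so the 5% with the highest scores, 419 and 622, were left out and 7967 and 11808 retained. Clustering used 2000 variable genes, 30 components, 15 neighbours and Leiden resolution 0.5, with scanpy 1.11.5, leidenalg 0.10.2, numpy 2.4.6 and scipy 1.17.1 in Python 3.11.15. Tumour-like meant at least 3 tumour or stroma markers at 5 times their median over clusters and an NK marker ratio under 0.67, thresholds set with the data in view. The Ncr1-positive sums were 26544235 and 27833790 UMIs.

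CPM is UMIs over the class total times 1000000. Intervals are exact Poisson for levels, exact conditional binomial for ratios and Clopper-Pearson for shares, at 95%. A count of 0 allows up to 3 UMIs. Log2 ratios, and so the calls at 1.5-fold and 2-fold, have 1 CPM added. The exceptions are the log2 ratios of the members by Ifit and by granzyme count, which have nothing added. Per-barcode relations used barcodes thinned to 1000 UMIs. Genes named were the family, the 5 most similar per member, and per list the 3 largest and 3 smallest log2 ratios plus a fixed set; values are given for part of them. Mki67, Top2a, Il2rg, Rtp4 and genes leading clusters were named after their values were seen. Ratios and thinning were tested on simulated data. With 1 library per group there is no p-value. Alternatives were other barcode sets, depths, filters and scalings.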

Additional observations from a re-analysis of the deposited data

Results flagged for a closer look

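Signals were also seen outside the comparisons. NK compartment barcodes without an Ncr1 UMI, 402 and 702, lie just outside the rule for Ncr1-positive barcodes. Ifitm1 was at 770 CPM (712 to 831) in those of the IL-15SA-only library and 364 CPM (333 to 398) in those of the combined library. Ifitm3 was at 349 CPM (311 to 391) and 313 CPM (284 to 344) there. Ifitm10, a family member outside the 3 chosen, was at 133 and 138 CPM in Ncr1-positive barcodes, above the 0.113 and 0.108 CPM that a count of 0 allows.

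The log2 ratio of Ifitm3 between the libraries had opposite signs in the 2 classes of barcode. It was -0.39 in Ncr1-positive barcodes and 0.25 in tumour-like barcodes. The difference between the classes was not tested, as each group is 1 library.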

How the results depend on the processing

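No result changed direction under any alternative that was run: 48 values stayed within the interval or the 1.5-fold limit of the reported value and 32 moved beyond it. No paired analysis was possible because the groups hold a single library each. The alternative without a cluster that mixes NK and tumour transcripts was not run. The main clustering gave a single tumour-like cluster, but at resolution 1 the cluster led by Phf11d, Fer and Gm19951 mixed both kinds. For the log2 ratio of Ifitm1 between libraries (-1.32), matching barcodes on UMIs gave -0.93, leaving out barcodes with any Gzmc to Gzmg UMI -1.16 and thinning to 1000 UMIs -1.51. The depth ranges, added after seeing the data, gave -2.02 under 2000 UMIs, -0.85 from 4000 to under 8000 and -0.39 from 8000. For Ifitm3 (-0.39) the same 3 alternatives gave -0.34, -0.081 and -0.34, and the ranges from 2000 to under 4000 and from 8000 UMIs gave -0.27 and -0.54. For tumour-like over Ncr1-positive levels, barcodes without an Ncr1 UMI (added after seeing the data) gave -0.62 for Ifitm1 in the IL-15SA-only library. In the combined library Ifitm1 (0.39) was 0.78 with a marker definition, 0.47 at resolution 1 and 0.63 without an Ncr1 UMI. Ifitm3 (2.37 and 3.00) was 2.67, 2.56 and 2.49 in the IL-15SA-only library and 3.36, 3.09 and 3.24 in the combined library under these 3. In the combined library, the Ifitm1 log2 ratio by Ifit (-0.60) was -0.97 in barcodes with 0 tumour or stroma marker UMIs, and that of Ifitm3 (0.65) was 0.39 when thinned to 2000 UMIs. That thinning kept 5453 and 6432 barcodes and moved the ratio by granzymes in the IL-15SA-only library to 1.71 from 1.88 for Ifitm1 and to 1.19 from 1.33 for Ifitm3. Without thinning, the shares of barcodes were 45.5% and 18.8% for Ifitm1 and 46.8% and 39.3% for Ifitm3. At a 5 CPM filter, 47 genes were at least 1.5-fold lower (25 at 20 CPM), 204 higher (79) and 23 at least 2-fold higher (11). Scaling by the median ratio shifts log2 ratios by 0.02. Beyond the construction of each alternative, the cause was not tested. Depth limits the 49 IL-15SA barcodes with 2 or more Ifit UMIs.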
